A study of Rattus norvegicus with 50 samples.

Results

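The antioxidant defence genes described here are 7 rat genes, taken by their Ensembl IDs from a table of 32545 IDs. They are Gclc (ENSRNOG00000006302), Gclm (ENSRNOG00000013409), Cat (ENSRNOG00000008364), Sod1 (ENSRNOG00000002115), Sod2 (ENSRNOG00000019048), Hmox1 (ENSRNOG00000014117) and Nqo1 (ENSRNOG00000012772). They were chosen for their known function, with earlier results of these data known. The table itself pairs IDs with no names, so the pairing of ID and symbol was taken as given. All 7 IDs were present, and all 7 reached an FPKM of at least 1 in each of the 50 libraries. FPKM counts fragments relative to transcript length and to the mapped total of a library, so levels can be set side by side between genes.

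Total RNA was sequenced from the kidney cortex and the kidney medulla of rats of the ZSF1 strain, in 10 groups of 5 libraries. Obese ZSF1 rats carry a defective leptin receptor and develop diabetes and kidney disease, and the study asked how activation of AMPK, an energy-sensing kinase, acts on such kidneys. Obese rats received enalapril at 10 mpk (the dose unit of the labels), vehicle, or MK-8722 at 1 or 10 mpk, and lean ZSF1 rats received vehicle. Enalapril inhibits angiotensin-converting enzyme and is used against hypertension and kidney disease, and MK-8722 is a small-molecule activator of AMPK. Treatment lasted 28 weeks in all groups, yet the labelled age is 20 weeks, which leaves the age at sampling unclear. The labels do not say which libraries came from one animal, and p-values therefore measure the spread between libraries. The tissue labels were not checked against cell type markers, since the IDs carry no names here.

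Cells remove superoxide and hydrogen peroxide with dedicated enzymes and keep a large pool of glutathione, a peptide that reduces peroxides and conjugates electrophiles. Many of the genes involved are switched on by the transcription factor Nrf2, which binds antioxidant response elements when oxidants or electrophiles release it from Keap1. In the kidney, proximal tubule cells, with many mitochondria and peroxisomes, are rich in catalase and in glutathione. Gclc and Gclm encode the catalytic and modifier subunits of glutamate-cysteine ligase, the rate-limiting enzyme of glutathione synthesis. Cat encodes catalase, the peroxisomal enzyme that breaks down hydrogen peroxide, and Sod1 and Sod2 encode the cytosolic and the mitochondrial superoxide dismutase. Hmox1 encodes heme oxygenase-1, the inducible enzyme that degrades heme, and Nqo1 encodes a quinone reductase. Hmox1, Nqo1, Gclc and Gclm are textbook Nrf2 targets.

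The start regions of Gclc and Gclm are shown because these subunit genes varied together more closely than any other pair of the 7 genes in both tissues, as described further on. Each window spans 250 bases before to 50 bases after the start of the gene (RefSeq, build GRCr8). Both lie on the + strand, Gclc at chr8:87510226-87510525 and Gclm at chr2:213031885-213032184. Capitals mark the letters that matched the core of the antioxidant response element, searched as TGACNNNGC on both strands.
Gclc: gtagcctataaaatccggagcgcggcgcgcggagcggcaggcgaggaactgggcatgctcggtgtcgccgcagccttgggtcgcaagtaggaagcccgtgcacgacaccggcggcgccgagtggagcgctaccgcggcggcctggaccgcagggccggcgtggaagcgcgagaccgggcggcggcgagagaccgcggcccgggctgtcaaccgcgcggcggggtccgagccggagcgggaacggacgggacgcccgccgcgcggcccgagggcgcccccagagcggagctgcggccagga
Gclm: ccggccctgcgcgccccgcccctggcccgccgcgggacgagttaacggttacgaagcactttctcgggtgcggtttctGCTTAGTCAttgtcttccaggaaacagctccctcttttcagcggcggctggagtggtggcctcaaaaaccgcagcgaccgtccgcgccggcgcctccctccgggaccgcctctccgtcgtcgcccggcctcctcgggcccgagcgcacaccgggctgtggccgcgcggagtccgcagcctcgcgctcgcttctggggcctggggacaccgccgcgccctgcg
The Gclm window held 1 match, on the opposite strand, 172 to 164 bases upstream of the start, and the Gclc window held none. Of the 7 genes, 6 had a window in the RefSeq table, all but Hmox1. Sod2 also held 1 match, 35 to 27 bases upstream, and Nqo1, Cat and Sod1 held none. The letters occurred in 12.06% of all 33469 windows searched, and a match is a description of the letters only.

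Gclc had the widest range of the 7 genes. Its mean FPKM over both tissues ranked 81 among the 32545 IDs, though Sod1 and Cat averaged higher in every cortex group, and its values spanned 80.8-fold over the 50 libraries, between 21.7 and 1754 FPKM. Gclm spanned 16.8-fold, between 38.7 and 649.9 FPKM, and Hmox1 spanned 13.5-fold, between 1.06 and 14.2 FPKM. The quinone reductase gene Nqo1 spanned 6.05-fold. The peroxide and superoxide enzymes were steadier, with 3.84-fold for Cat, 2.30-fold for Sod1 and 1.47-fold for Sod2. Hmox1 and Nqo1 were the lowest genes of the set, with medians of 6.71 and 5.63 FPKM over all libraries, against medians of 311 FPKM for Sod1 and 308 FPKM for Gclc.

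**Figure D1:**
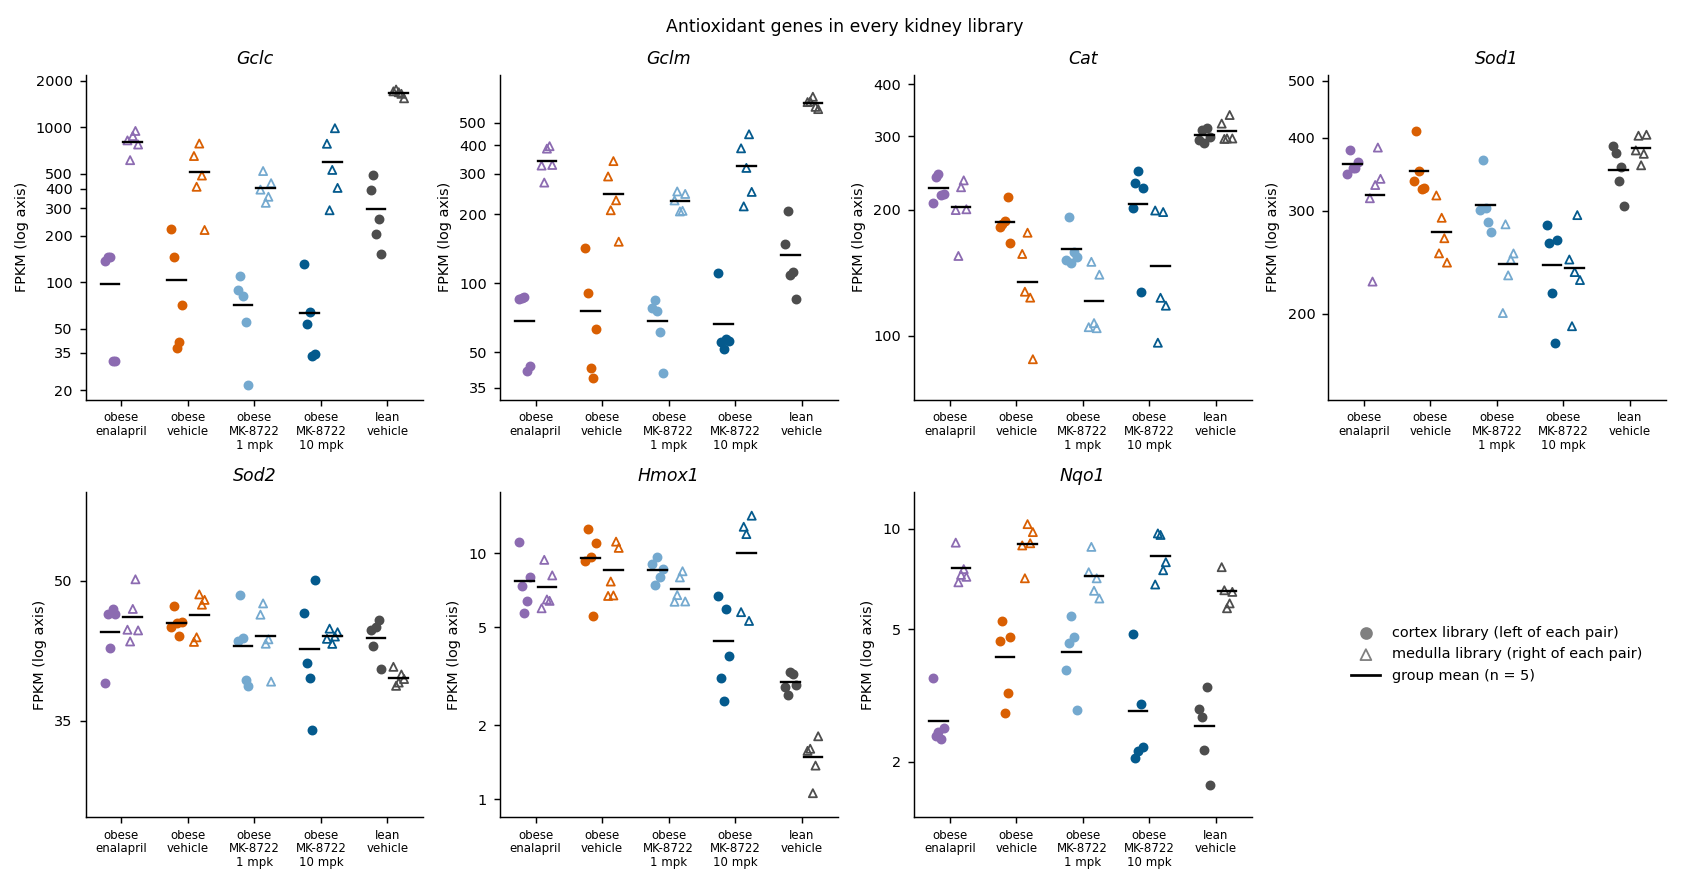
FPKM of each gene in every library on log axes, with filled circles for cortex libraries, open triangles for medulla libraries and a line at each group mean (n = 5 libraries). Gclc and Gclm lie highest in the lean medulla, with group means of 1666 and 609 FPKM, while Hmox1 lies lowest there at a mean of 1.48 FPKM, and Sod2 stays between 34.2 and 50.2 FPKM in all 50 libraries.

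Library scaling bears on every comparison with lean rats. The 6 most abundant IDs took 39.1 to 66.2% of a library's summed FPKM, with group means of 52.6% in obese vehicle against 61.2% in lean vehicle cortex, and 54.0% against 61.9% in medulla. The median of all genes tested lay at a log2 change of 0.30 in cortex and 0.37 in medulla for obese vehicle over lean vehicle. Values after median-ratio rescaling, which brings that median near 0, are therefore given beside the deposited scale. Relative sequencing depth, read from the steps of low values, ranged over 0.596 to 1.52 with the median library set to 1. It averaged 1.02 in obese vehicle against 1.35 in lean vehicle cortex, and 0.724 in obese vehicle against 1.12 in lean vehicle medulla.

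The kidneys of obese vehicle-treated rats held less Gclc, Gclm and Cat and more Hmox1 than those of lean rats, in cortex and in medulla. Sod1 was lower in medulla. Nqo1 was higher in both tissues on the deposited scale only, and the direction of Sod2 turned with the scaling. In the cortex 5 of the 7 genes passed the limma test across all genes at an adjusted p under 0.05, 2 higher and 3 lower. Of all 13579 genes tested there, 61.1% were called, 54.3% higher and 6.83% lower. In the medulla all 7 passed, 3 higher and 4 lower, beside 67.7% of 14195 genes called, 56.8% higher and 10.9% lower. The share called in either direction in cortex was near that of all genes. After rescaling, calls in the lower direction numbered 5 of the 7 in cortex and 4 in medulla, beside 21.0% of all genes in cortex and 24.1% in medulla. The median log2 change of the 7 genes was -0.01 in cortex and -0.48 in medulla, beside the all-gene medians given above. All log2 changes are of FPKM plus a pseudocount of 0.5, which understates changes of low genes such as Hmox1 and Nqo1. In bulk tissue, fewer cells of a type and less RNA per cell cannot be told apart.

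Gclc in the medulla was lower in every obese library than in any lean one. Obese vehicle medulla held 652, 413, 785, 488 and 217 FPKM (mean 511 ± 219, SD, n = 5), against 1707, 1754, 1685, 1646 and 1540.0 FPKM in lean vehicle medulla (mean 1666 ± 80.9, SD, n = 5). No obese library came near the lean range, and the obese libraries were far more scattered, with a coefficient of variation of 42.8% against 4.85%. The log2 change was -1.83 ± 0.285 (SE, limma adjusted p = 7.49e-06) and -2.18 after rescaling.

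In the cortex Gclc was lower too, but the libraries scattered in both genotypes. Obese vehicle cortex held 220.0, 145, 37.5, 40.7 and 71.4 FPKM (mean 103 ± 78.4, SD, n = 5), against 393, 491, 204, 254 and 151 FPKM in lean vehicle cortex (mean 299 ± 140.1, SD, n = 5). Obese replicate 1 lay inside the lean range and the other 4 obese libraries lay below it. The log2 change was -1.75 ± 0.598 (SE, limma adjusted p = 0.0162). When relative depth was fitted too it was -3.31. The library labels of 8 cortex libraries fall in a higher number range, and without these 8 the change was -1.61 with an adjusted p of 0.055.

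Gclm followed Gclc in the medulla with a smaller change. Its values were 292, 208, 340.5, 229.7 and 152 FPKM in obese vehicle medulla, against 616, 619, 649.9, 587 and 574 FPKM in lean vehicle medulla, and the groups did not overlap. The log2 change was -1.37 ± 0.179 (SE, limma adjusted p = 4.97e-07). The cortex gave 142, 90.6, 42.8, 38.7 and 62.9 FPKM in obese vehicle rats, against 148, 207, 108, 112 and 85.1 FPKM in lean vehicle rats. Those groups overlapped, with obese replicates 1 and 2 inside the lean range. The cortex log2 change of -0.90 ± 0.336 (SE, limma adjusted p = 0.0246) lost its call without lean replicate 1 or 2 or without obese vehicle replicate 3 or 5, with adjusted p of 0.0514 to 0.0755. It was also lost in the fit of the compared groups alone (adjusted p = 0.0654) and without the 8 libraries of the higher number range (adjusted p = 0.0932), and the change was -1.82 with relative depth as a term.

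Cat was lower in every obese vehicle library than in any lean library of the same tissue. Medulla held 157, 127, 176, 123 and 87.8 FPKM in obese vehicle rats, against 322, 296, 296, 337 and 296 FPKM in lean vehicle rats. Cortex held 182, 185, 188, 215 and 167 FPKM in obese vehicle rats, against 295, 311, 289.7, 313 and 299.6 FPKM in lean vehicle rats. Its lean libraries lay close together in both tissues, as those of Gclc and Gclm did only in medulla. The log2 changes were -1.24 ± 0.186 in medulla and -0.69 ± 0.122 in cortex (SE, limma adjusted p = 3.77e-06 and 4.29e-05), and both calls held whichever library was left out and in every alternative setting.

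The cytosolic superoxide dismutase gene was lower in the obese medulla. Sod1 in medulla held 319, 254, 292, 269 and 245 FPKM in obese vehicle rats, against 380.4, 403, 359, 375 and 405 FPKM in lean vehicle rats. The groups did not overlap, and the log2 change was -0.48 ± 0.12 (SE, limma adjusted p = 0.00113) as deposited and -0.84 after rescaling (adjusted p = 1.56e-05). In cortex Sod1 averaged 351 ± 34.6 FPKM in obese vehicle and 353 ± 32.5 FPKM in lean vehicle rats (SD, n = 5 each), a log2 difference of -0.01 with a 95% interval of -0.23 to 0.21. On the rescaled values Sod1 was lower in obese cortex too, by a log2 change of -0.34 (limma adjusted p = 0.0164).

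The direction of Sod2 depended on scaling. Medulla values were 42.8, 43.3, 48.3, 47.1 and 47.6 FPKM in obese vehicle rats, against 40.2, 38.3, 38.6, 39.4 and 38.9 FPKM in lean vehicle rats, with no overlap. The log2 change was 0.23 ± 0.0586 (SE, limma adjusted p = 0.00162) on the deposited scale, below the all-gene median, and -0.12 (adjusted p = 0.132) after rescaling. The fit that also held relative depth gave 0.14 (adjusted p = 0.194). In cortex it was 0.06 (adjusted p = 0.564) as deposited and -0.27 (adjusted p = 0.0253) after rescaling. Sod2 is thus reported with no direction.

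Hmox1 moved the other way from the glutathione genes. Medulla held 6.72, 7.69, 6.75, 11.2 and 10.5 FPKM in obese vehicle rats, against 1.57, 1.61, 1.06, 1.37 and 1.80 FPKM in lean vehicle rats. Cortex held 9.32, 12.5, 9.68, 5.58 and 11 FPKM in obese vehicle rats, against 2.86, 2.65, 3.31, 3.23 and 2.90 FPKM in lean vehicle rats. Every obese vehicle library lay above every lean one in both tissues. The log2 change was 2.18 ± 0.216 in medulla and 1.5 ± 0.207 in cortex (SE, limma adjusted p = 7.53e-09 and 2.29e-06), and 1.87 and 1.21 after rescaling. In medulla 248 of the 14195 genes tested had a larger rise than Hmox1, and in cortex 669 of 13579.

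Nqo1, another Nrf2 target, moved less and only on the deposited scale. It averaged 9.03 ± 1.22 FPKM in obese vehicle and 6.49 ± 0.737 FPKM in lean vehicle medulla (SD, n = 5 each), a log2 change of 0.44 ± 0.113 (SE, limma adjusted p = 0.00137). In cortex it averaged 4.14 ± 1.07 FPKM in obese vehicle and 2.57 ± 0.638 FPKM in lean vehicle rats (SD, n = 5 each), a log2 change of 0.59 ± 0.2 (SE, adjusted p = 0.0138). The ranges overlapped in both tissues. After rescaling the changes were 0.11 in medulla and 0.31 in cortex, with adjusted p of 0.426 and 0.154, and with relative depth as a term 0.14 and 0.16, with adjusted p of 0.482 and 0.582. The cortex call was also lost without lean replicate 7 (adjusted p = 0.0501).

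The groups of 5 libraries did not overlap for 6 of the 7 genes in medulla, all but Nqo1, and for Hmox1 and Cat in cortex. Among all genes tested the share without overlap was 54.1% in medulla and 40.8% in cortex.

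**Figure D2:**
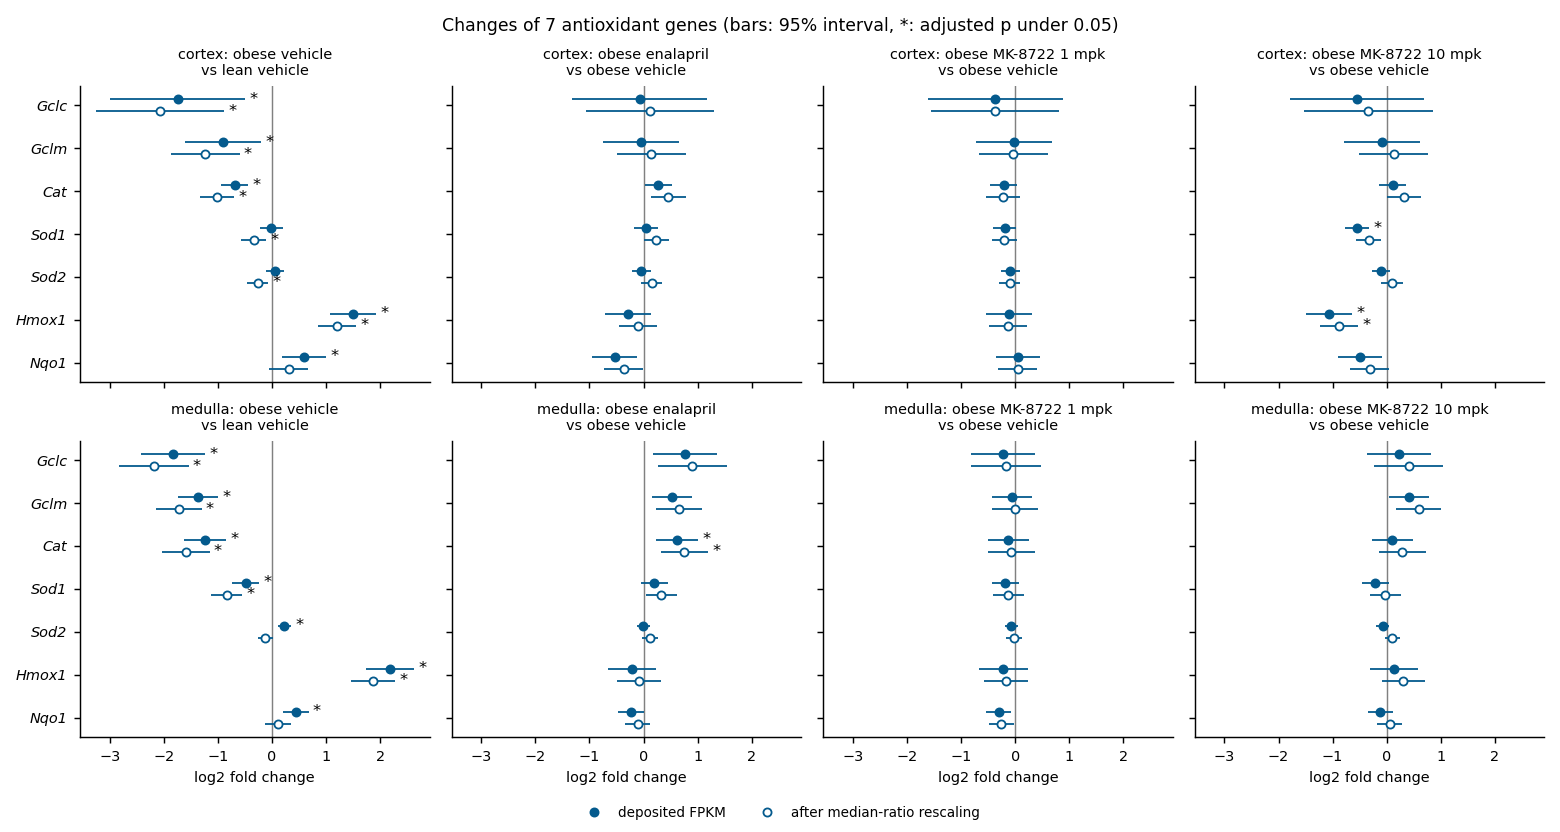
Log2 fold changes of the 7 genes in cortex (top row) and medulla (bottom row) for obese vehicle over lean vehicle and for each drug group over obese vehicle, with 95% intervals. Filled points are deposited FPKM, open points rescaled values, and a star marks an adjusted p under 0.05. The left column holds nearly all the calls, and the open points there sit to the left of the filled ones for all 7 genes.

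The obesity-linked changes were compared between the tissues in a joint fit of all 50 libraries. None of the 7 interactions passed limma's adjusted p, beside 4.86% of 14586 genes called, and 3 had an unadjusted p under 0.05. Those were Sod1, Cat and Hmox1. The Sod1 change was 0.48 ± 0.162 higher in cortex than in medulla on the log2 scale (SE, adjusted p = 0.0807), that of Cat was 0.55 ± 0.228 higher (adjusted p = 0.177), and that of Hmox1 differed by -0.68 ± 0.309 (adjusted p = 0.231). Once relative depth entered the fit, Sod1 passed, at 0.53 with an adjusted p of 0.0397, and it passed in the fit of the compared groups alone (adjusted p = 0.0195).

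The ratio of Gclc to Gclm also differed between the groups. It averaged 2.02 ± 0.349 in obese vehicle and 2.74 ± 0.0984 in lean vehicle medulla, and 1.24 ± 0.317 in obese vehicle and 2.19 ± 0.361 in lean vehicle cortex (SD, n = 5 each). The highest obese vehicle ratio was 2.31 in medulla, against a lowest lean ratio of 2.59. In cortex it was 1.60, against a lowest lean ratio of 1.78. Under enalapril the highest ratio was 2.53 in medulla and 1.67 in cortex. The ratio is a description, since both genes were tested one by one.

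Enalapril moved 1 of the 7 genes past the threshold, Cat in the medulla. Its medulla values were 199.9, 155, 227, 235 and 201 FPKM in enalapril-treated rats, against 157, 127, 176, 123 and 87.8 FPKM in obese vehicle rats. The ranges overlapped through enalapril replicate 3 alone. The log2 change was 0.62 ± 0.186 (SE, limma adjusted p = 0.0379), beside 10.6% of 14195 genes called in the medulla, with 1.57% of all genes higher. The call was lost without enalapril replicate 2, 5, 6 or 7 or without obese vehicle replicate 4, 6 or 7, with adjusted p of 0.0599 to 0.139. It was also lost without the filter on low values (adjusted p = 0.0625) and with the medullary position described further on as a term (adjusted p = 0.0578).

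Gclc and Gclm in the enalapril medulla were above obese vehicle means without passing. Gclc held 823, 614, 879, 947 and 774 FPKM under enalapril (mean 807 ± 126, SD, n = 5), against a mean of 511 ± 219 FPKM in obese vehicle medulla. The log2 difference was 0.77 with a 95% interval of 0.18 to 1.36 (limma adjusted p = 0.0758). Gclm averaged 342 ± 49.6 FPKM under enalapril, against 244 ± 73.6 FPKM in obese vehicle medulla (SD, n = 5 each), a log2 difference of 0.53 (adjusted p = 0.0571). Without obese vehicle replicate 5 both passed, Gclc at an adjusted p of 0.0301, and Gclm also passed without obese vehicle replicate 3 or enalapril replicate 3. Hmox1 stayed near its obese level, with 5.99, 9.42, 6.5, 6.42 and 8.14 FPKM under enalapril and a log2 difference of -0.21 from obese vehicle (95% interval -0.65 to 0.24).

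In the cortex limma called none of the 7 genes under enalapril, beside 14.4% of 13579 genes called, and 2 had an unadjusted p under 0.05, Nqo1 and Cat. Nqo1 held 3.57, 2.39, 2.45, 2.34 and 2.53 FPKM under enalapril, against 4.62, 5.30, 2.80, 3.22 and 4.74 FPKM in obese vehicle cortex. Enalapril replicate 1 alone overlapped the obese vehicle range. The log2 difference was -0.54 (adjusted p = 0.0652), and it passed without that library or without obese vehicle replicate 3 or 5, at adjusted p of 0.0314 to 0.0371, and with the number range of the library labels as a term (adjusted p = 0.0433). Cat averaged 225 ± 15.7 FPKM under enalapril and 187 ± 17.3 FPKM in obese vehicle cortex (SD, n = 5 each), a log2 difference of 0.27 (adjusted p = 0.116), and passed without the higher number range (adjusted p = 0.0132). Gclc under enalapril fell into separate levels, with 136, 144 and 146 FPKM in replicates 1, 2 and 4 and 30.7 and 30.8 FPKM in replicates 6 and 7. Gclm divided the same libraries, with 84.8, 86.3 and 87.3 FPKM against 41.2 and 43.4 FPKM.

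Against lean rats, enalapril-treated rats kept most of the obese pattern. In medulla Hmox1, Gclc, Gclm, Cat and Sod2 passed, 5 of the 7 genes beside 46.9% of all genes called, 40.2% higher and 6.73% lower. The log2 changes over lean vehicle were 1.97 for Hmox1, -1.06 for Gclc, -0.84 for Gclm, -0.62 for Cat and 0.22 for Sod2 (limma adjusted p of 0.00915 or less). When relative depth was fitted too, Hmox1 alone was called, and the Sod2 call was also lost after rescaling, where Sod1 passed at -0.51 (adjusted p = 0.00525). In cortex Hmox1 at 1.2, Gclc at -1.82, Gclm at -0.95 and Cat at -0.42 passed, 4 of 7 beside 25.1% of all genes called, 20.8% higher and 4.26% lower (limma adjusted p of 0.0415 or less). The Gclc call there was lost without lean replicate 1 or 2 or enalapril replicate 6 or 7, with adjusted p of 0.0679 to 0.0866, and the Gclm call without any of 6 libraries, lean replicates 1, 2, 3 and 6 and enalapril replicates 6 and 7 (adjusted p of 0.0531 to 0.114) or without the filter on low values (adjusted p = 0.0552). Without the higher number range neither passed, at adjusted p of 0.118 and 0.136.

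MK-8722 at 1 mpk left no gene of the set past the threshold. Limma called none of the 7 in either tissue, where 0.0% of all genes tested were called and 583 of 13579 in cortex and 577 of 14195 in medulla had an unadjusted p under 0.05. Among the 7 genes only Nqo1 in medulla had one. It held 7.41, 8.83, 6.52, 7.10 and 6.18 FPKM under 1 mpk, against 8.91, 7.11, 10.3, 9.05 and 9.78 FPKM in obese vehicle medulla. Its log2 difference was -0.31 with a limma adjusted p of 1.0. The 95% intervals of the log2 differences from obese vehicle were narrow for Sod2, at -0.26 to 0.08 in cortex and -0.20 to 0.04 in medulla, and wide for Gclc, at -1.61 to 0.88 in cortex and -0.81 to 0.37 in medulla.

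At 10 mpk the cortex held less Hmox1 and less Sod1 than in obese vehicle rats. Hmox1 held 9.32, 12.5, 9.68, 5.58 and 11 FPKM under vehicle, 9.06, 7.46, 9.68, 8.0 and 8.62 FPKM at 1 mpk and 6.71, 3.12, 2.51, 5.96 and 3.82 FPKM at 10 mpk. All 5 libraries at 10 mpk lay below all 5 at 1 mpk, and 3 of them lay below the lowest vehicle library, replicate 5. The log2 change at 10 mpk over obese vehicle was -1.08 ± 0.207 (SE, limma adjusted p = 0.00104), and -0.88 after rescaling (adjusted p = 0.00162). In this comparison 2 of the 7 genes were called, both lower, beside 26.6% of 13579 genes called, 24.5% lower, and an all-gene median of -0.19. In the fit with relative depth Hmox1 was at -0.70 and missed the threshold (adjusted p = 0.083). Mean relative depth was 1.34 at 10 mpk and 1.02 in obese vehicle cortex, and its part in the result was not tested beyond that term.

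Sod1 was the other cortex gene. It held 338, 410.1, 351, 327 and 328 FPKM under vehicle, 301, 366, 304, 287 and 276 FPKM at 1 mpk and 284, 265, 217, 178 and 267 FPKM at 10 mpk. Every library at 10 mpk lay below every vehicle library, and replicate 2 alone lay within the range at 1 mpk. The log2 change over obese vehicle was -0.55 ± 0.106 (SE, limma adjusted p = 0.00101). After rescaling it was -0.34 (adjusted p = 0.0626), and -0.40 in the fit with relative depth (adjusted p = 0.0667).

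Nqo1 at 10 mpk was near the threshold in the cortex. It held 4.83, 2.05, 2.16, 2.98 and 2.22 FPKM at 10 mpk, against 4.62, 5.30, 2.80, 3.22 and 4.74 FPKM under vehicle. Replicate 2 at 10 mpk stood with the vehicle libraries, and 3 of the other 4 lay below the whole vehicle range. The log2 difference was -0.50 ± 0.2 (SE, limma adjusted p = 0.0657). It passed without replicate 2 at 10 mpk (adjusted p = 0.00871), without vehicle replicate 3 or 5, and with the replicate number as a block (-0.47, adjusted p = 0.0487). Gclc, Gclm and Cat averaged 63.2, 66.1 and 207 FPKM at 10 mpk, against 103, 75.4 and 187 FPKM in obese vehicle cortex, and none passed. Cat passed without replicate 6 at 10 mpk, at an adjusted p of 0.0146.

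The doses were also compared directly. In cortex 4 of the 7 genes differed between 10 and 1 mpk, beside 30.2% of all genes called, 28.0% lower and 2.24% higher, with Hmox1, Nqo1 and Sod1 lower and Cat higher at 10 mpk. The log2 changes of 10 over 1 mpk were -0.95 for Hmox1 (limma adjusted p = 0.00344), -0.55 for Nqo1 (0.0414), -0.35 for Sod1 (0.0173) and 0.33 for Cat (0.0449). Only the Hmox1 call held whichever library was left out. Nqo1 was called in 3, Cat in 2 and Sod1 in 9 of the 10 fits that left out a library, and after rescaling Hmox1 and Cat were called. With relative depth as a term none of the 4 passed, Hmox1 at -0.64 (adjusted p = 0.0961), and without the higher number range Hmox1 was at -0.82 (adjusted p = 0.0575). In medulla limma called none of the 7 between the doses, beside 5.92% of all genes, and 1 had an unadjusted p under 0.05, Gclm, at a log2 difference of 0.46 (adjusted p = 0.112). Gclm passed without replicate 2 at 10 mpk (adjusted p = 0.0358).

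In the medulla 10 mpk gave no call against obese vehicle, beside 18.1% of 14195 genes called by limma, and 1 gene had an unadjusted p under 0.05, Gclm. The libraries were widely spread. Hmox1 held 5.77, 12.8, 12, 5.32 and 14.2 FPKM at 10 mpk, against 6.72, 7.69, 6.75, 11.2 and 10.5 FPKM under vehicle. Gclc held 783, 291, 531, 987 and 406 FPKM at 10 mpk, against 652, 413, 785, 488 and 217 FPKM under vehicle. Replicates 1 and 5 at 10 mpk had the lowest Hmox1 and the highest Gclc of that group, and replicates 2, 3 and 6 had the reverse. Cat divided the same libraries, with 199 and 198 FPKM in replicates 1 and 5 and 96.2, 123 and 118 FPKM in replicates 2, 3 and 6. Relative depth divided them too, at 1.05 and 0.927 against 0.747, 0.755 and 0.844, and its part in the split was not tested. The log2 difference of Hmox1 was 0.14 with a 95% interval of -0.31 to 0.59, and that of Gclm 0.41 (adjusted p = 0.105), which passed without replicate 2 at 10 mpk or vehicle replicate 5 (adjusted p of 0.0323 and 0.0338).

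The Hmox1 response to 10 mpk was set against itself in the other tissue. The change over obese vehicle was lower in cortex than in medulla by a log2 difference of -1.22 ± 0.309 (SE, limma adjusted p = 0.0855), beside 0.226% of 14586 genes called. None of the 7 genes passed, and 2 had an unadjusted p under 0.05, Hmox1 and Sod1. After rescaling Hmox1 passed at -1.19 (adjusted p = 0.0356). It also passed without replicate 2 at 10 mpk or vehicle replicate 5 in cortex, or without replicate 1 or 5 at 10 mpk in medulla, at adjusted p of 0.0218 to 0.029. For enalapril no interaction was called by limma and none had an unadjusted p under 0.05, beside 0.00686% of all genes called.

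The drugs were compared with each other at their labelled doses of 10 mpk each. In cortex Hmox1 was lower under MK-8722 than under enalapril, with a log2 change of -0.78 (limma adjusted p = 0.0153), and Sod1 was lower at -0.59 (adjusted p = 0.000499). Those 2 of 7 stood beside 9.63% of all genes called, 5.8% lower. Sod1 did not overlap, with 178 to 284 FPKM under MK-8722 and 347 to 381 FPKM under enalapril. The Hmox1 call was lost without replicate 5 under MK-8722 (adjusted p = 0.0508) and in the fit of the compared groups alone (adjusted p = 0.0895). Without the higher number range neither call held, at adjusted p of 0.165 for Hmox1 and 0.0665 for Sod1. In medulla limma called none of the 7, beside 2.73% of all genes, and 2 had an unadjusted p under 0.05, Cat at -0.52 and Sod1 at -0.41 on the log2 scale. Sod1 passed without enalapril replicate 3 or without replicate 5 at 10 mpk, and Cat without replicate 1 at 10 mpk, with adjusted p of 0.00632 to 0.0496.

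Compared with lean vehicle, cortex at 10 mpk MK-8722 kept low Gclc, Gclm and Cat. Sod1 was lower too, as it was in obese vehicle cortex after rescaling only. The log2 changes at 10 mpk on the deposited scale were -2.29 for Gclc, -0.99 for Gclm, -0.58 for Cat and -0.56 for Sod1 (limma adjusted p of 0.0234 or less). These 4 of 7 stood beside 38.3% of all genes called, 10.5% lower. Hmox1 was at 0.42 with a 95% interval of -0.01 to 0.85 (adjusted p = 0.114), and it passed without replicate 5 at 10 mpk (adjusted p = 0.0234). The Gclm call was lost without lean replicate 1 or 2 or replicate 6 at 10 mpk (adjusted p of 0.0518 to 0.0731). Without the higher number range Gclc and Gclm missed the threshold, at adjusted p of 0.125 and 0.264. In medulla all 7 were called against lean vehicle, beside 47.7% of all genes called, 36.6% higher and 11.1% lower, with Hmox1 at 2.32, Gclc at -1.61, Cat at -1.13, Gclm at -0.96, Sod1 at -0.69, Nqo1 at 0.33 and Sod2 at 0.15. The Nqo1 and Sod2 calls were lost after rescaling, when relative depth was fitted (adjusted p of 0.395 and 0.279), when medullary position was fitted (0.102 and 0.064), and without any of 3 and 6 libraries. Those are lean replicate 5 and 10 mpk replicates 2 and 3 for Nqo1, and lean replicates 3, 5, 6 and 7 and 10 mpk replicates 2 and 6 for Sod2 (adjusted p of 0.0522 to 0.0692 over both genes).

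The tissues held different levels in rats given no drug. In lean vehicle rats Gclc averaged 299 ± 140.1 FPKM in cortex and 1666 ± 80.9 FPKM in medulla, and Gclm averaged 132 ± 47.6 FPKM in cortex and 609 ± 29.7 FPKM in medulla (SD, n = 5 each). Nqo1 was lower in cortex as well, at 2.57 ± 0.638 FPKM, against 6.49 ± 0.737 FPKM in medulla. Hmox1 was the reverse, with 2.99 ± 0.273 FPKM in cortex and 1.48 ± 0.282 FPKM in medulla. The log2 changes of cortex over medulla were -2.61 for Gclc, -2.27 for Gclm, -1.21 for Nqo1 and 0.82 for Hmox1 (limma adjusted p of 0.00214 or less). These 4 of 7 genes, whose groups did not overlap, stood beside 39.9% of 14586 genes called (11.5% higher and 28.4% lower in cortex) and 34.8% without overlap. Cat averaged 302 ± 10.3 FPKM in cortex and 309.6 ± 19.1 FPKM in medulla (SD, n = 5 each), a log2 difference of -0.04 with a 95% interval of -0.36 to 0.29. Sod2 was not called in the joint fit as deposited, but after rescaling it was higher in cortex by 0.26 (limma adjusted p = 0.00873). It also passed in the fit of the compared groups alone (adjusted p = 0.0308) and with relative depth as a term (adjusted p = 0.0497).

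In obese vehicle rats the tissue contrast of Hmox1 did not pass, and those of Cat and Sod1 did. Hmox1 averaged 9.63 ± 2.59 FPKM in cortex and 8.57 ± 2.13 FPKM in medulla (SD, n = 5 each), a log2 difference of 0.15 with a 95% interval of -0.30 to 0.59. Cat was higher in cortex by 0.51 (limma adjusted p = 0.00854) and Sod1 by 0.35 (adjusted p = 0.0117). The Cat call was lost without medulla replicate 7 (adjusted p = 0.0622) and with relative depth as a term, at 0.38 (adjusted p = 0.136). Gclc at -2.52, Gclm at -1.80 and Nqo1 at -1.06 remained lower in cortex, which made 5 of 7 genes called beside 46.6% of all genes, 11.5% higher and 35.1% lower in cortex. The tests of these differences between genotypes are the interactions given above, none of which passed.

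The order of the 10 group means shows how far the genes diverge. For Gclc all 5 medulla groups stood above all 5 cortex groups, with lean medulla highest at 1666 FPKM, then enalapril medulla at 807 FPKM, and 10 mpk cortex lowest at 63.2 FPKM. The obese cortex groups lay at 63.2 to 103 FPKM, and no tested difference between them was called. MK-8722 at 1 mpk was not tested against enalapril. For Hmox1 the lean medulla was lowest at 1.48 FPKM, lean cortex followed at 2.99 FPKM and 10 mpk cortex at 4.43 FPKM, and the other 7 groups lay between 7.19 and 10 FPKM. For Cat the lean groups were highest, at 309.6 FPKM in medulla and 302 FPKM in cortex, and 1 mpk medulla was lowest at 121 FPKM. For Sod2 all 10 group means lay between 39.1 and 45.8 FPKM, with lean medulla the lowest.

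**Figure D3:**
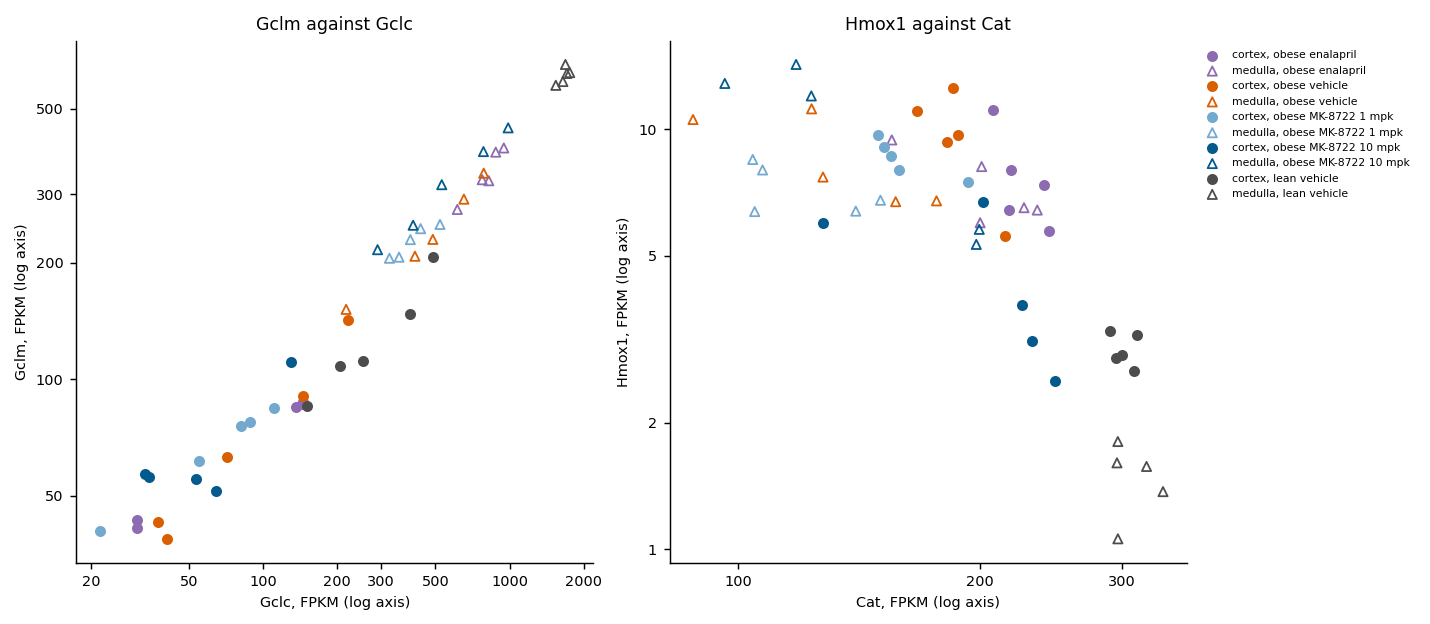
Gclm against Gclc (left) and Hmox1 against Cat (right), 1 point for each library on log axes, filled circles for cortex and open triangles for medulla, coloured by treatment. Gclm climbs with Gclc along one band across both tissues, and the libraries with the most Cat, the lean ones at 289.7 to 337 FPKM, have Hmox1 of 1.06 to 3.31 FPKM, a range that 2 cortex libraries at 10 mpk share.

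With the group means removed from the log2 values after median-ratio rescaling, some of the 7 genes still varied together from library to library. Other pairs did not. Correlations on the deposited scale were not computed. Over the 25 medulla libraries Gclc correlated with Gclm at Pearson's r of 0.98, with Cat at 0.95 and with Sod1 at 0.80. Hmox1 ran opposite to these, at -0.73 with Gclc, -0.76 with Gclm and -0.78 with Cat. Over the 25 cortex libraries Gclc and Gclm again correlated at 0.95, but Cat stood apart from them, at 0.06 with Gclc and -0.09 with Gclm. Cat there went with Sod1 at 0.75 and Sod2 at 0.74 and against Hmox1 at -0.78. Nqo1 stood at 0.05 to 0.19 with Gclc, Gclm, Cat, Sod1 and Hmox1 in medulla, and at 0.52 with Sod2 there. In cortex it stood at 0.58 with Gclc and 0.59 with Gclm. These values are descriptions of libraries that share a table, a scaling and a dissection, and carry no test.

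**Figure D4:**
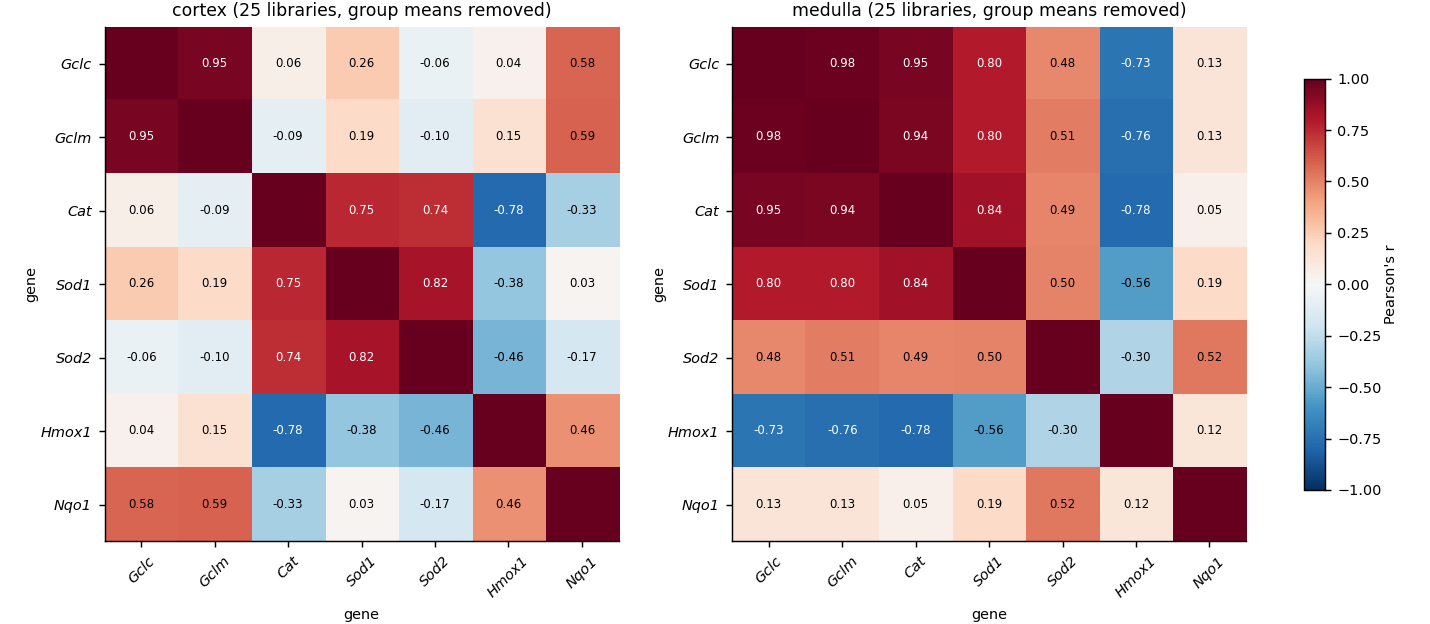
Pearson's r between each pair of genes over 25 cortex libraries (left) and 25 medulla libraries (right), from blue (-1) to red (1). The log2 values are median-ratio rescaled, with the group means removed. Gclc and Gclm form a red block with Cat and Sod1 in medulla, while in cortex Cat, Sod1 and Sod2 form a block of their own, and Hmox1 is blue against Cat in both.

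A measure of how much a library resembled lean medulla was set beside the cortex values, chosen after the data had been seen. Libraries were placed between the lean cortex mean, at 0, and the lean medulla mean, at 1, by 44 genes that differ between the lean tissues and were not called with obesity, with the 7 genes left out. Among obese vehicle cortex libraries this medullary position was 0.227, 0.133, 0.0335, -0.0334 and 0.116 in replicates 1, 2, 3, 5 and 6, where Gclc was 220.0, 145, 37.5, 40.7 and 71.4 FPKM. The 3 libraries with the most Gclc were the 3 nearest to medulla. In enalapril cortex, replicates 6 and 7 had the lowest positions, at -0.0243 and -0.0327, and also the least Gclc. At 10 mpk the order did not hold. Cortex replicate 6 at 10 mpk MK-8722, at 0.237 the nearest to medulla of all cortex libraries, had the lowest Gclc of its group, 33.1 FPKM. On rescaled log2 values over all 25 cortex libraries, with group means removed, the position correlated with Gclm at 0.69, Gclc at 0.53 and Cat at -0.75. Relative depth correlated with Gclc at -0.72 and Gclm at -0.72, and with the position itself at -0.60. With the position as a term in the fit, the cortex change of obese vehicle over lean vehicle was -2.51 for Gclc, -1.47 for Gclm, -0.52 for Cat and 1.18 for Hmox1, all 4 called by limma (adjusted p of 0.00119 or less). Nqo1 was at 0.29 and was no longer called (adjusted p = 0.176). The position was built without the genes called with obesity, so whether it accounts for the obesity changes was not tested.

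**Figure D5:**
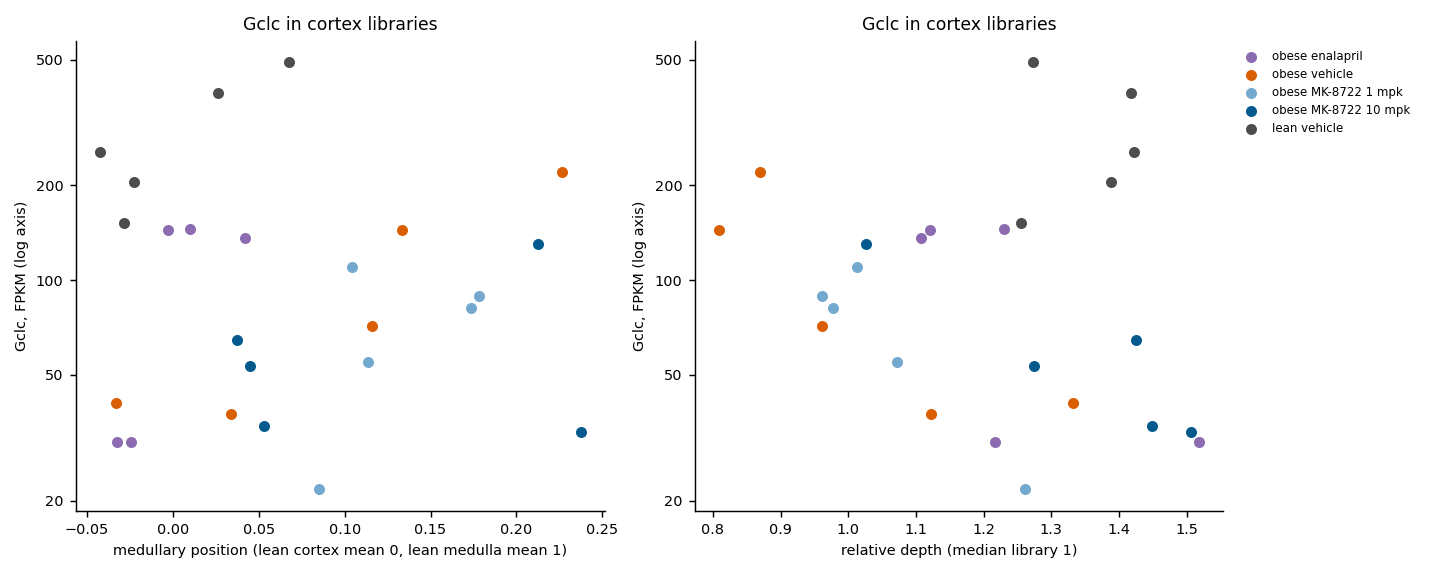
Gclc in the 25 cortex libraries on a log axis against medullary position (left, lean cortex mean 0 and lean medulla mean 1) and against relative depth (right, median library 1), coloured by treatment. The lean libraries lie between 151 and 491 FPKM, and among obese vehicle libraries the one with the highest position, 0.227, has the most Gclc. The highest position of all, 0.237 at 10 mpk MK-8722, goes with 33.1 FPKM, the lowest of that group.

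Outside the set, the ID whose rescaled log2 values followed each gene most closely over all 50 libraries was found among the other 14585 genes tested. Gclc had the closest follower, ENSRNOG00000024903 at Pearson's r of 0.996, and Gclm followed with ENSRNOG00000022711 at 0.991. The closest followers of Cat, Sod1, Nqo1, Hmox1 and Sod2 reached 0.982, 0.953, 0.940, 0.904 and 0.843. None of the 7 nearest IDs was itself a member of the set, and their names are not used here.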

How the data were processed

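Total RNA from 50 kidney libraries (1 µg per library, stranded, ribosomal RNA removed, per the labels' protocols) was analysed. The authors deposited FPKM values for 32545 Ensembl IDs. Aligner, genome build and annotation: not given in the sources used here. Absolute depth is unknown. Relative depth came from low values that fell on whole multiples of 1 read, as 96.5% of 57405 values in 5123 genes did within 0.1 reads.

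R 4.3.3 with limma 3.58.1 (mean-variance trend, robust moderation) was run on log2(FPKM + 0.5) for all genes that reached 1 FPKM in 5 or more of the fitted libraries. Each tissue was fitted on its 25 libraries, and tissue contrasts and interactions on all 50. P-values are two-sided and Benjamini-Hochberg adjusted over all genes tested, with calls under 0.05. The fit was tested on simulated data.

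Gene pathway and cell type lists could not be applied, since 0 of the IDs matched a named reference gene. Same-numbered libraries of cortex MK-8722 10 mpk and cortex obese vehicle deviated together (r of 0.222 to 0.373 over 3 pairs), as did those of cortex and medulla MK-8722 10 mpk (0.101 to 0.309 over 3 pairs), so the blocked value stands beside a comparison of these groups where it changes a call. The 7 genes, the lists and the medullary position were chosen with earlier results of these data known. The text names the 7 genes, and the closest other ID of Gclc and of Gclm.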

Additional observations from a re-analysis of the deposited data

Results flagged for a closer look

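Of the 70 groups of 5 libraries (7 genes in 10 groups), 3 held a library whose gap to the nearest other took more than 0.71 of the group's range, and chance alone gives about 1 in 20. In cortex under enalapril, replicate 1 had 3.57 FPKM of Nqo1, against 2.34 to 2.53 FPKM in the other 4 libraries. In cortex at 10 mpk MK-8722, replicate 2 had 111 FPKM of Gclm, against 51.5 to 56.8 FPKM in the others. The same library also had the highest Gclc, Nqo1 and Hmox1 of its group. Its medullary position was 0.213, below the 0.237 of replicate 6. In cortex at 1 mpk MK-8722, replicate 2 had 193 FPKM of Cat, against 149 to 158 FPKM in the others.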

How the results depend on the processing

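Of 147 combinations of gene and comparison, 50 were called, 37 of these whichever library was left out and 25 in every setting, and 79 of the 97 others were called in no setting. The counts below are of the 7 genes called. Under median-ratio rescaling Sod2 changed sign against lean vehicle, to -0.27 in cortex and -0.12, -0.00402 and -0.0185 in medulla for obese vehicle, enalapril and 10 mpk MK-8722. Rescaling also gave 1 for 10 mpk over vehicle in cortex, 2 for 10 over 1 mpk in cortex and 1 for the 10 mpk interaction. With relative depth as a term there were 0 for 10 mpk over vehicle and 0 for 10 over 1 mpk in cortex, 1 for enalapril over lean in medulla and 1 for the obesity interaction. With the replicate block there were 2 for enalapril over vehicle and 2 for 10 over 1 mpk in cortex, and 0 for enalapril over vehicle in medulla. Cortex 10 mpk paired with cortex obese vehicle and with medulla 10 mpk, the blocked 10 mpk interaction had no call, and the other compared groups share numbers only. In the fit of the compared groups alone there were 1 for 10 over 1 mpk and 1 for 10 mpk over enalapril in cortex, and 1 for the obesity interaction. Without the filter there were 2 for 10 over 1 mpk in cortex and 0 for enalapril over vehicle in medulla. In cortex, 8 libraries have labels in a higher number range, unevenly over groups (3 at 10 mpk, 2 in lean and 1 in each other). With that range as a term there were 1 for enalapril over vehicle and 2 for 10 over 1 mpk. In the lower range alone there were 3 for obese over lean vehicle, 1 for enalapril over vehicle, 1 for 10 over 1 mpk, 0 for 10 mpk over enalapril, 2 for enalapril over lean and 2 for 10 mpk over lean. With medullary position as a term, chosen after seeing the data, there were 0 for enalapril over vehicle in medulla. Leaving out 1 library gave, in cortex, 0 to 1 for enalapril over vehicle, 1 to 4 for 10 over 1 mpk, 1 to 2 for 10 mpk over enalapril and 2 to 4 for enalapril over lean. In medulla it gave 0 to 3 for enalapril over vehicle and 0 to 1 each for 10 mpk over vehicle, over 1 mpk and over enalapril, and 0 to 1 for the 10 mpk interaction. The cause of these shifts was not tested. Low values of Hmox1 and Nqo1 are the least precise, since 1 read is a larger part of them.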
